A study of Mus musculus with 2 samples.

Results

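Heat shock proteins and chaperonins are the machines that fold newly made proteins, hold unfolded ones and prise aggregates apart. Their genes were compared between activated mouse CD8+ T cells cultured with bezafibrate, a fibrate drug that activates the PPAR nuclear receptors, and the same kind of cells cultured with dimethyl sulfoxide (DMSO), its solvent. The bezafibrate culture received the drug at 30 µM from the start of culture. Both cultures were started from naive CD8+ T cells, were stimulated by beads carrying antibodies to CD3 and CD28 with recombinant human interleukin-2 at 100 U/mL, and were expanded. The labels name 13, with no unit, as the time of the functional assays, and do not say when RNA was taken. They give no strain, sex, age or number of animals, and there is 1 array for each culture.

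Members were all probe sets whose platform annotation holds exactly 1 gene symbol that starts with Hspa, Hspb, Hspd, Hspe, Hsph, Hsp90 or Dnaj, or that names a subunit of the chaperonin TRiC (Tcp1, Cct2 to Cct8 with Cct6a and Cct6b). This gave 87 of the 23521 probe sets with 1 symbol, for 77 of 22180 genes. Where several probe sets read a gene, as for 7 members, the one with the higher mean signal stood for it. The members were sorted by where their products act, with 38 cytosolic or nuclear genes, 13 of the endoplasmic reticulum (ER), 7 mitochondrial, 9 of TRiC, and 10 others on vesicles and endosomes, of unsettled place, or sharing only the symbol. Hsp90ab1 and Hsf1, the constitutive HSP90 and the main heat shock transcription factor, were not analysed here.

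HSP70 proteins bind and release short unfolded stretches in a cycle that J-domain proteins start, by delivering the client and triggering ATP hydrolysis, and that exchange factors such as the HSP110 proteins reset. HSP90 finishes the folding of kinases and receptors, many of which T cells need for antigen and cytokine signalling. TRiC, a double ring of different subunits, encloses actin and tubulin, and HSP60 with its lid HSP10 does the like in mitochondria. Heat, oxidants and misfolded proteins raise the cytosolic set through heat shock factors, and an overloaded ER raises its own set through the unfolded protein response.

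Values are log2 signals, so that a difference of 1 is a doubling, and every log2 ratio is bezafibrate minus DMSO. With 1 array for each culture there is no replicate spread, no test was possible and no p-value is given. Each ratio compares 2 arrays. The floor was the median of all genes with a symbol, 4.85 on the bezafibrate array and 4.88 on the DMSO array, and a gene had to pass it on the array where it was brighter. Below 4.68 on the bezafibrate array and 4.71 on the DMSO array, the 95th percentile of 1390 olfactory and vomeronasal receptor genes, a signal is called within background. Of the members, 61 lay above the floor, and the other 16 were within background on both arrays. Of the CD8 T cell markers, 6 of 6 with a value were above the floor, among them Cd8a at 10.68 with bezafibrate and 10.82 with DMSO, and Cd3e at 11.05 and 11.10. Markers of other cells were above the floor for 2 of 4 B cell genes (Cd79b and Ighm), 1 of 3 natural killer cell genes (Fcer1g), 1 of 2 genes of CD4 T cells (Foxp3) and 0 of 5 macrophage genes. Ighm read 8.72 with bezafibrate and 9.05 with DMSO, and Fcer1g 5.64 and 6.57. The part of such cells in the chaperone values was not tested, and in bulk RNA fewer cells of a type and less RNA per cell cannot be told apart.

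Promoters were searched for exact forms of the classical stress elements, as background to the values. RefSeq windows from 250 bases before to 50 bases after a gene's start, on build GRCm38.p6, were found for 64 of the 77 members. A heat shock element, taken as 3 alternating units of GAA and TTC parted by 2 bases of any kind and searched on both strands, occurred in 4 of these members (6.25%), Hspd1, Hspe1, Hsph1 and Dnajb6, against 0.662% of 27025 genes with a window. An ER stress element, taken as CCAAT and CCACG parted by 9 bases and searched likewise, occurred in Hspa5, Hsp90b1 and Dnajc3 (4.69% of the 64 members, and 27.3% of 11 ER members with a window), against 0.137% of all genes. A match is only a run of letters, and no binding was measured. Imperfect forms and sites outside the window were not counted, so a gene without a match may still carry an element. The stress-inducible Hspa1a, Hspa1b and Dnajb1 had windows without a match. Hspa8, Hsp90aa1 and Hspa13 were among the 13 members without a window and were not searched. The stretches that end just before the start site are shown 5′ to 3′ on the gene's strand, with the heat shock elements of Hspe1 and Dnajb6 and the ER stress elements of the other 3 genes in capitals. They are Hspe1 at chr1:55087998-55088147 (plus strand), Dnajb6 at chr5:29735748-29735897 (plus), Hspa5 at chr2:34771940-34772089 (plus), Dnajc3 at chr14:118937782-118937931 (plus) and Hsp90b1 at chr10:86705445-86705664 (minus).
Hspe1: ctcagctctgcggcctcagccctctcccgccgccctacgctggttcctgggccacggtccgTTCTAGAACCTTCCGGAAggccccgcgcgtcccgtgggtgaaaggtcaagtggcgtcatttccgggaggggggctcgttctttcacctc
Dnajb6: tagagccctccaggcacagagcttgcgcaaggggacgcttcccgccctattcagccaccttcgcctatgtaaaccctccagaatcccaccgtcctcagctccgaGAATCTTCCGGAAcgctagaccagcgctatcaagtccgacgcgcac
Hspa5: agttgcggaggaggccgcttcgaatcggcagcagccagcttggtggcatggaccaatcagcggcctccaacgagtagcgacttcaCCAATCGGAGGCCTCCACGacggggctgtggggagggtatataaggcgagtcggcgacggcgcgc
Dnajc3: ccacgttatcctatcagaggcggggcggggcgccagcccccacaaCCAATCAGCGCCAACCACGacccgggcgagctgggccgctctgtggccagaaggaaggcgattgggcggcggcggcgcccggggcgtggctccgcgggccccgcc
Hsp90b1: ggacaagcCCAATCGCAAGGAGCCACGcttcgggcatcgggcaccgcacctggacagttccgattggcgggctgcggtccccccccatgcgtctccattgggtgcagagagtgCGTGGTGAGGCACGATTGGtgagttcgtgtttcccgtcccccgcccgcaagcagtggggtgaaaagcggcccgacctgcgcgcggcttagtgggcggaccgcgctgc

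In Hspe1 there are 2 overlapping matches that join into 1 run. Hspd1 lies head to head with Hspe1, so that 285 of the 300 bases of one of its windows are the same DNA read from the other strand. Hsp90b1 holds 2 ER stress elements, one on each strand, and the element of Hsph1 lies after its annotated start. As to their levels, the 4 members with a heat shock element had log2 ratios of 0.13 (Hspd1), 0.10 (Hsph1), 0.00 (Dnajb6) and −0.12 (Hspe1). The 3 with an ER stress element had 0.05 (Hspa5), 0.07 (Dnajc3) and 0.09 (Hsp90b1). All 7 ratios were smaller in size than 0.14.

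As a whole the chaperone genes read almost alike on the bezafibrate and the DMSO array. Of the 61 members above the floor, 30 were higher with bezafibrate, 30 lower and 1 equal, with a median log2 ratio of 0.00, equal to the 0.00 of all 11446 named genes above the floor. At least 1.5-fold higher were 0 of the 61 members, against 0.664% of all genes, and at least 1.5-fold lower 0, against 0.524%. At a lower limit, a log2 ratio of 0.32 in either direction, 1 member was higher, Hspa13, where the share of all genes was 5.83%, and 4 were lower, Hspa2, Dnajc12, Dnajb5 and Dnajc4, where it was 6.33%. The SD of the members' ratios was 0.17, against 0.22 over all genes, and 40 of 61 members (65.6%) lay between the quartiles of all ratios, −0.14 and 0.14. Ratios spread more at low signal, so the members were also set against genes of like level. The middle 95% of ratios ran from −0.48 to 0.45 at mean log2 levels under 6, from −0.39 to 0.42 between 6 and 8, and from −0.37 to 0.34 over 8. Outside its band lay 1 member, Hspa2, where the share of all genes was 5.01%. These counts use 1 probe set for each gene. Further probe sets passed the limit of 0.32 for Tcp1, at 0.40, and for Hspa8, at −0.39 and −0.40. Those of Hspa8 also lay outside the band for levels over 8.

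**Figure D1:**
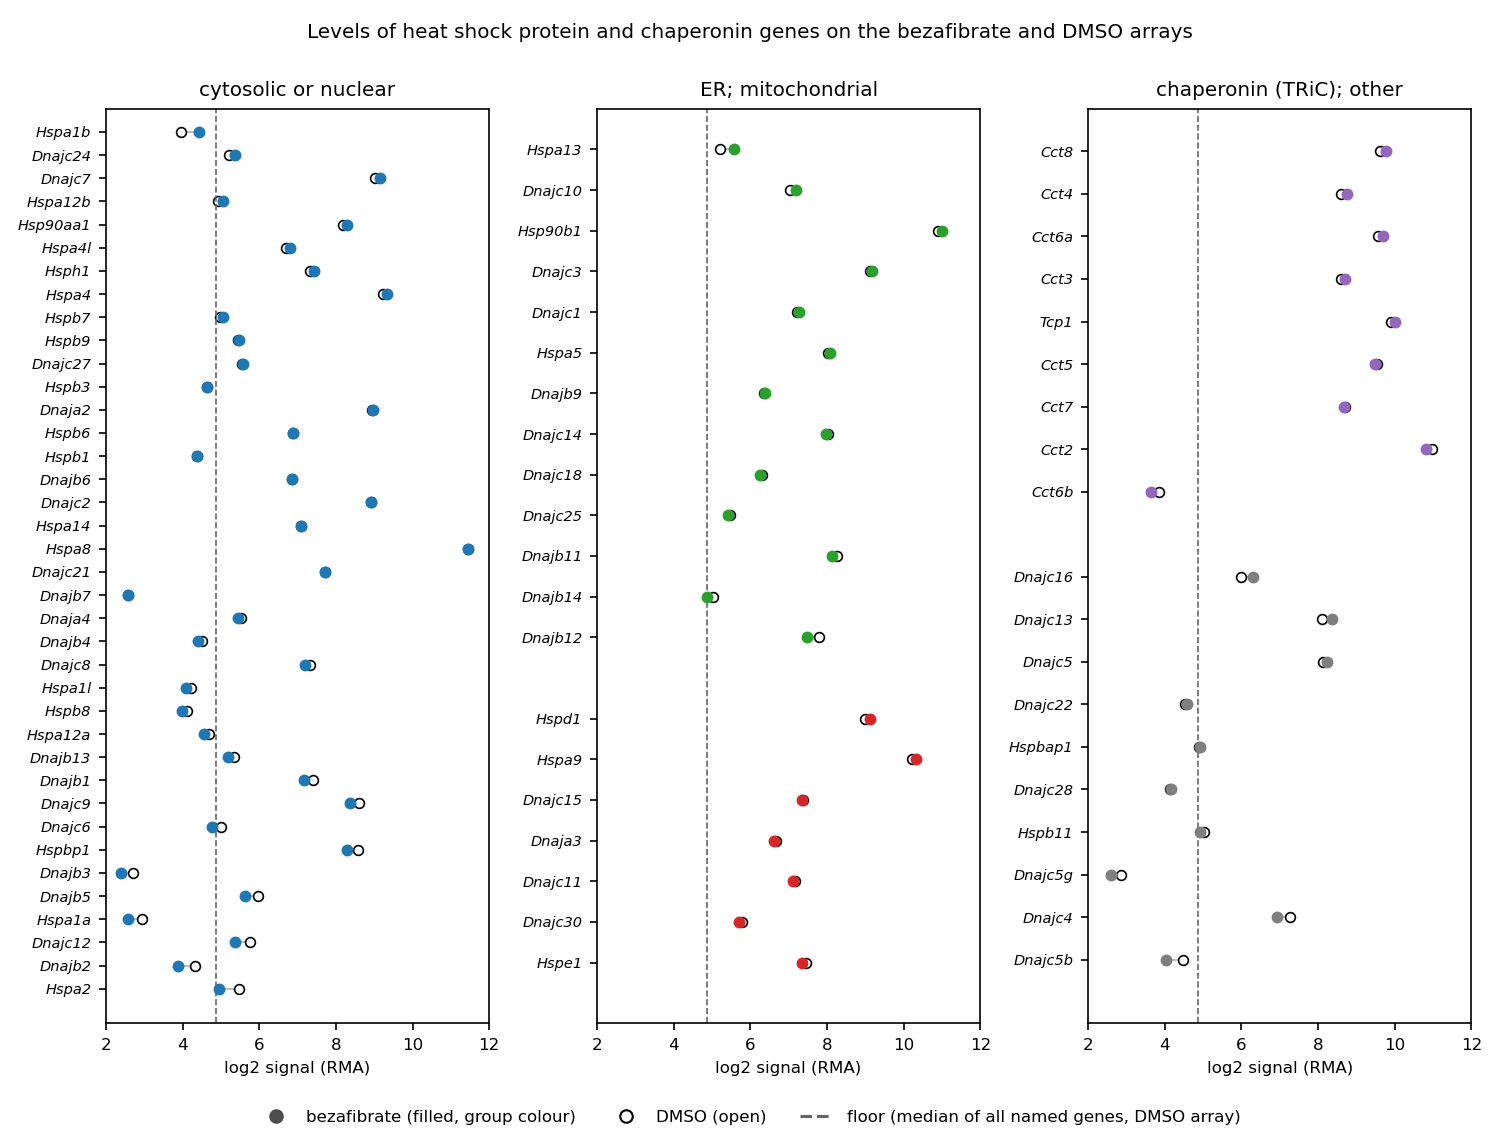
Log2 signal (x axis) of all 77 members, a row for each gene and 1 value for each array, with bezafibrate as filled points in the group's colour and DMSO as open points. The dashed line is the floor of the DMSO array at 4.88; the pairs nearly coincide for most genes, and Hspa2, Dnajc12, Hspa13, Dnajc16 and Dnajb12 are among those that part.

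The cytosolic HSP70 genes differed in whether they were read at all. Hspa8, the constitutive HSP70 of the cytosol, had a level of 11.45 with bezafibrate and 11.46 with DMSO, a log2 ratio of 0.00. Its 3 further probe sets had ratios of −0.14, −0.39 and −0.40, at levels of 7.99, 8.97 and 8.96 with bezafibrate against 8.12, 9.36 and 9.36 with DMSO. A probe set shared with Snord14e, a small nucleolar RNA gene of an Hspa8 intron, had −0.12. None of the 5 probe sets was higher with bezafibrate, and they differed in how much lower they read. Those with −0.39 and −0.40 had nearly the same value on each array, and whether they are separate readings was not tested.

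Hspa1a and Hspa1b, the near-identical genes of the stress-inducible HSP70, were within background on both arrays. Hspa1a read 2.58 with bezafibrate and 2.94 with DMSO, Hspa1b read 4.44 and 3.96, and a probe set naming both read 3.08 and 3.15. The signs of the 2 genes are opposite, and no fold is given at that signal. Hspa1l, their testis-expressed neighbour, and Hspa12a were within background as well. Hspa14, which with the J-domain protein Dnajc2 forms the ribosome-bound pair that meets nascent chains, had 7.08 on both arrays, and Dnajc2 had 8.91 on both.

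Hspa2, best known for its role in male germ cells, had the largest difference among the members above the floor. Its level was 4.95 with bezafibrate and 5.48 with DMSO, 1.45-fold lower. The bezafibrate value is close to that array's background limit of 4.68, and the DMSO value stands further above its limit of 4.71. Hspa12b, a distant HSP70 relative, had 5.05 and 4.92.

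All 3 HSP110 genes, whose products reset HSP70 by releasing its nucleotide, were slightly higher with bezafibrate. Hspa4 had levels of 9.34 with bezafibrate and 9.24 with DMSO, Hspa4l had 6.80 and 6.69, and Hsph1 had 7.42 and 7.32. Their log2 ratios, 0.10, 0.11 and 0.10, lay between the quartiles of all genes. Hsp90aa1, the stress-inducible HSP90 of the cytosol, had levels of 8.29 and 8.17, a ratio of 0.12. Hspbp1, another exchange factor of HSP70, went the other way, with 8.29 with bezafibrate and 8.58 with DMSO, a ratio of −0.29.

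Small heat shock proteins, ATP-independent holders of unfolded clients, were dim or level. Hspb1, the most widely expressed of them, was within background at 4.38 on both arrays, as were Hspb3 and Hspb8. Hspb6, an abundant muscle protein, read 6.88 with bezafibrate and 6.87 with DMSO, and Hspb7 and Hspb9 had ratios of 0.07 and 0.03.

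The J-domain partners in the cytosol and nucleus held most of the lower ratios of that compartment. Of 15 above the floor, 4 were higher, 10 lower and 1 equal, with a median of −0.07. Dnajb1, the main stress-inducible partner of HSP70, had levels of 7.16 with bezafibrate and 7.39 with DMSO, a ratio of −0.23. Dnajb5 had 5.63 and 5.98 (1.27-fold lower), and Dnajc12, a partner of the aromatic amino acid hydroxylases, had 5.37 and 5.75 (1.30-fold lower). Dnajc9, a co-chaperone of histones H3 and H4, had 8.37 and 8.60, and Dnajc6, the auxilin that uncoats clathrin vesicles, had 4.78 and 5.01. The bezafibrate value of Dnajc6 is under that array's floor of 4.85, so Dnajc6 was counted through the DMSO array alone. Dnajb6, which keeps polyglutamine proteins from aggregating, had the same value, 6.85, on both arrays, and 5.25 and 5.14 on a probe set shared with Gm5129. The highest were Dnajc24, which serves diphthamide synthesis, at 0.15 and Dnajc7, which links HSP70 and HSP90, at 0.13. Dnaja2 had 8.96 and 8.95, and Dnaja1, read only together with Mir207, had 7.52 and 7.57. A further probe set of Dnajc7, shared with Nkiras2, had −0.28, and which of the 2 genes it reads was not tested.

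The cytosolic and nuclear group as a whole had 12 of 27 genes higher and 14 lower, with a median of 0.00. Its mean was −0.06, pulled below the median by Hspa2, Dnajc12 and Dnajb5.

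In the ER, 4 chaperones known as targets of the unfolded protein response, Hspa5, Hsp90b1, Dnajc3 and Dnajb9, were slightly higher, by amounts between the quartiles of all genes. Hspa5, the ER's HSP70 known as BiP, had levels of 8.08 with bezafibrate and 8.03 with DMSO. Hsp90b1, the ER's HSP90 known as GRP94, had 11.00 and 10.91, and Dnajc3, which also restrains the kinase PERK, had 9.19 and 9.12. These are the 3 genes with the ER stress elements shown above. Dnajb9, a BiP partner, had 6.39 and 6.35. Dnajb11, another BiP partner that the response is known to raise, was lower, with 8.12 and 8.27 and a ratio of −0.15. The wider list of ER folding and response genes, given further below, had 10 of 24 higher and 14 lower.

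Hspa13, an HSP70 relative of the ER without the peptide-binding part, had the highest ratio among the members above the floor. Its level was 5.58 with bezafibrate and 5.20 with DMSO, 1.31-fold higher. Dnajc10, which reduces disulfides in misfolded proteins, followed with 7.20 and 7.03. Dnajb12, an ER membrane protein whose J-domain faces the cytosol, was lowest with 7.49 and 7.79, a ratio of −0.30, and its relative Dnajb14 had 4.88 and 5.03. Over the 13 ER genes the median was 0.04, with 7 higher and 6 lower and a range from −0.30 to 0.39. Without Hspa13, the member farthest from the median, the ER median was 0.00.

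The mitochondrial chaperones had a median ratio of −0.05, with 2 of 7 higher and 5 lower, and all 7 lay between the quartiles of all genes. Hspa9, the HSP70 of the matrix that pulls imported proteins through the inner membrane, had levels of 10.32 with bezafibrate and 10.22 with DMSO. Hspd1, which encodes HSP60, had 9.12 and 8.99, a ratio of 0.13. Hspe1, which encodes its lid HSP10, had 7.35 and 7.47, a ratio of −0.12. Hspd1 and Hspe1, transcribed from the shared stretch printed above, thus had ratios of opposite sign. Measured from genes matched in level and gene length, by taking off their median ratio, Hspd1 had 0.20 and Hspe1 0.01. The same step moved other members named above, some up and some down. Hspa5 came to 0.21, Hsp90b1 to 0.17, Dnajb9 to 0.14, Dnajc3 to −0.01 and Dnajb11 to −0.12. Hsp90aa1 came to 0.26, Dnajb1 to −0.10 and Dnajc9 to −0.09, while Hspa2 (−0.48) and Dnajb12 (−0.30) stayed low.

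The 4 mitochondrial J-domain genes were all lower by small amounts, from −0.07 to −0.02. Dnaja3, the matrix partner of Hspa9, had 6.61 with bezafibrate and 6.66 with DMSO. Its 2 further probe sets, both within background, had ratios of 0.18 and −0.37. Dnajc15, which attends protein import at the inner membrane, had 7.35 and 7.38, and Dnajc11, which binds the cristae-shaping complex, had 7.10 and 7.16. Dnajc30, a J protein of the inner membrane, had 5.70 and 5.77, the lowest ratio of the 4, and 7.71 and 7.81 on a probe set shared with Bud23. Dnajc19, a second J protein of import, was read only by probe sets naming further genes, with 7.93 and 7.99 on the brighter one and 5.28 and 5.01, the opposite sign, on one that also names Fxr1.

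TRiC had the highest group median, 0.11, with 5 of 8 subunits above the floor higher and 3 lower. Cct8 had levels of 9.77 with bezafibrate and 9.61 with DMSO, Cct4 had 8.75 and 8.61, and Cct6a had 9.70 and 9.56. Cct3 had 8.72 and 8.60 and Tcp1 10.02 and 9.91, so that these 5 ratios fell between 0.10 and 0.16. Cct5, with 9.50 and 9.53, and Cct7, with 8.67 and 8.70, were nearly level.

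Cct2 was the lowest TRiC subunit, with 10.82 with bezafibrate and 10.96 with DMSO, a ratio of −0.14. The subunits of 1 complex, each present in every ring, thus had ratios on both sides of 0 within a range of −0.14 to 0.16. Cct6b, the testis form of Cct6a, was within background. Second probe sets existed for Cct6a, with 6.59 and 6.74, and for Tcp1, with 5.58 and 5.18. Their ratios were −0.15 for Cct6a, the opposite sign to its brighter probe set, and 0.40 for Tcp1. With all probe sets of a gene averaged, the TRiC median was 0.06.

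**Figure D2:**
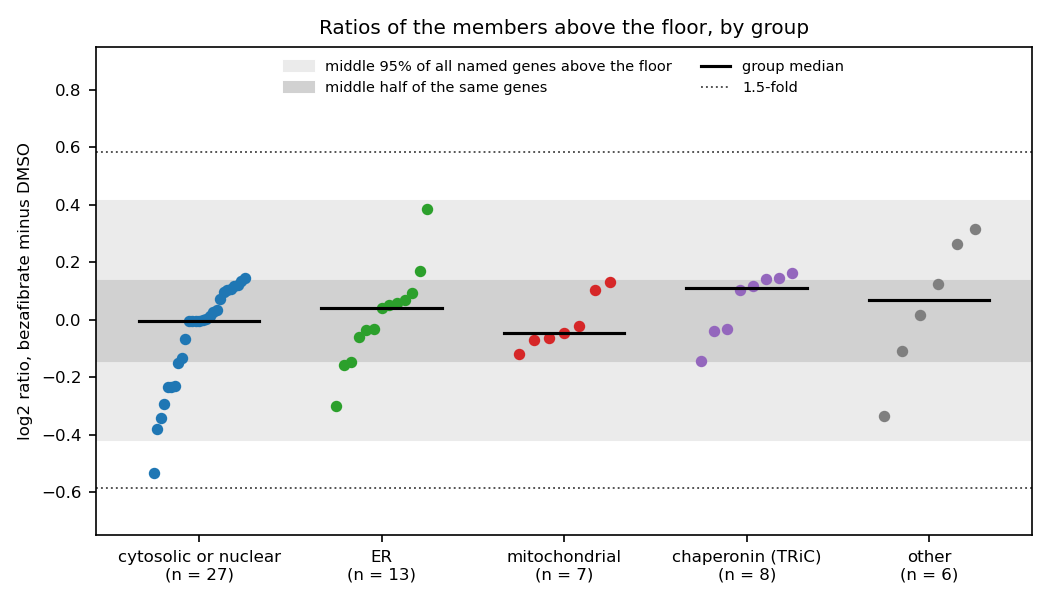
Log2 ratio of bezafibrate minus DMSO (y axis) for each of the 61 members above the floor, by group, with each gene a point and the group median as a black bar. The light band is the middle 95% of all named genes above the floor (−0.42 to 0.41) and the dark band runs between their quartiles; group medians run from −0.05 to 0.11, and Hspa2 at −0.53 is the point outside the light band.

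Set against each other, the compartments had median ratios of 0.00 for the cytosol and nucleus, 0.04 for the ER, −0.05 for mitochondria and 0.11 for TRiC, with SDs over genes of 0.18, 0.17, 0.09 and 0.11 in that order, and the ranges of all 4 overlapped. The differences between groups were not tested. The levels behind the groups differed too. Of the 25 members with a mean log2 level over 8, 16 were higher and 9 lower, with a median of 0.09, against 0.01 for the 2615 genes of that level. Of the 17 members under 6, 7 were higher and 10 lower, with a median of −0.07, against −0.03 for the 3876 genes of that level.

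**Figure D3:**
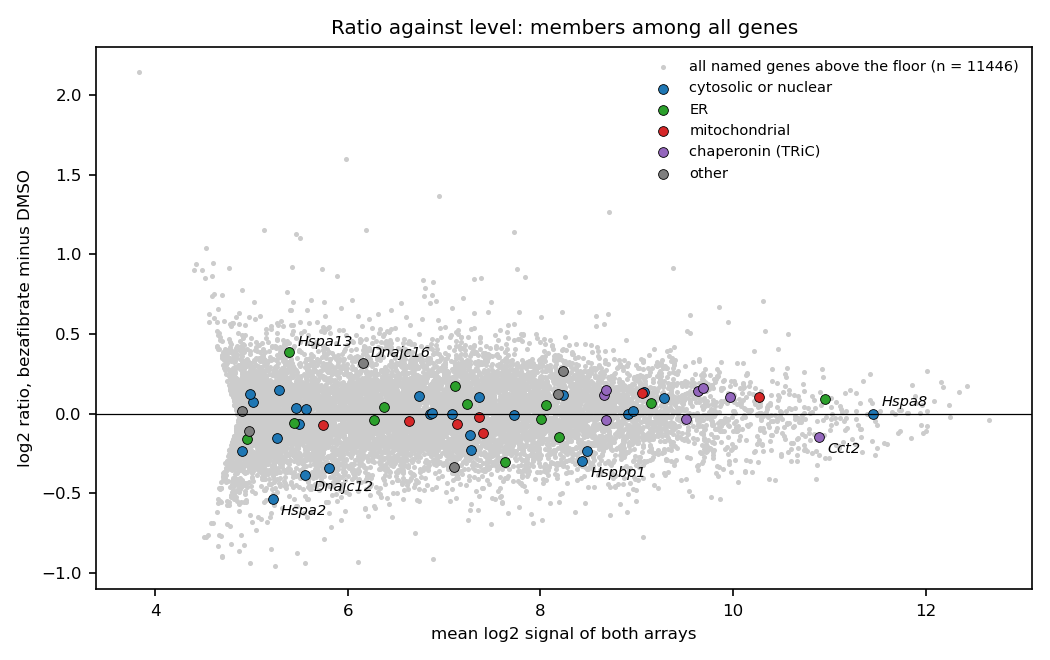
Log2 ratio of bezafibrate minus DMSO (y axis) against the mean log2 signal of both arrays (x axis), with grey points for all 11446 named genes above the floor and coloured points for the 61 members by group. The members lie within the cloud of all genes, and Hspa2 and Dnajc12, both at low signal, have the lowest ratios among them.

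A split by family was made after the values were seen. J-domain genes had a median of −0.07 against 0.05 for the rest in the cytosol and nucleus. In the ER it was −0.04 against 0.09, and in mitochondria −0.055 against 0.10, with 3 genes in each rest. TRiC holds no J-domain gene. Among members with other places, the J-domain genes Dnajc16, Dnajc13 and Dnajc5 were higher and Dnajc4 lower. Of the 33 J-domain genes above the floor, 11 were higher, 21 lower and 1 equal, with a median of −0.04. Of the 28 other members, the HSP70, HSP110, HSP90, HSP60, small heat shock and TRiC genes with 3 of other function, 19 were higher and 9 lower, with a median of 0.08. TRiC supplied 8 of these 28, so the pooled counts partly restate the TRiC group. Over all genes above the floor, 48.4% were higher and 49.6% lower. The class B J-domain genes, those with a glycine-rich stretch but no zinc finger, had 1 of 8 higher, 6 lower and 1 equal, with a median of −0.15.

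Level and gene length moved with that split. The median gene length was 27999 bp for the J-domain genes and 12800 bp for the others, and the other families read at higher median levels, 8.29 with bezafibrate and 8.38 with DMSO against 7.10 and 7.16 for the J-domain genes. Over all genes the median ratio was −0.09 for the shortest 2845 genes and 0.08 for the longest 2845. After the same matching in level and length, 9 of 33 J-domain genes were above 0 and 22 of 28 others, with medians of −0.07 and 0.09. Across that correction and 7 other ways of handling the values, the J-domain median lay between −0.07 and −0.01 and that of the others between 0.03 and 0.10. All of these rework the same arrays and so give no independent support, and the difference between the families was not tested.

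Of the members with other places, Dnajc16, a membrane protein of little-known function, had levels of 6.31 with bezafibrate and 5.99 with DMSO. Dnajc13, which shapes sorting on endosomes, had 8.36 and 8.10, and Dnajc5, a vesicle protein of regulated exocytosis, 8.25 and 8.12. Dnajc4 had 6.94 and 7.27, 1.26-fold lower. The limit of 0.32 in size thus passed between Dnajc4, with a ratio of −0.33, and Dnajc16, 1.24-fold higher. Hspb11, in fact a subunit of the cilium's transport train, had −0.11, and Hspbap1 0.02.

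The partners of these chaperones gave a similar picture, with the lower side more filled. The lists stand in for the rest of the folding pathway. Of 7 listed genes of heat shock factors and their regulators, 6 had a value, and 3 of these 6 were above the floor. Hsf2 had 5.66 with bezafibrate and 5.69 with DMSO, Hsf4 had 5.95 and 6.05, and Hsbp1, which binds heat shock factor trimers, had 8.08 and 8.26. Among 19 cytosolic co-chaperones above the floor, 7 were higher, 11 lower and 1 equal, with a median of −0.01.

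Bag1, an exchange factor that links HSP70 to the proteasome, was lowest among those co-chaperones, at 7.34 with bezafibrate and 7.85 with DMSO, 1.43-fold lower. Tsc1, which also serves HSP90 as a co-chaperone, had a ratio of −0.32. Ppid, the cyclophilin of HSP90 complexes, and Chordc1 each had 0.23. The HSP70 to HSP90 adaptor Stip1, at 9.03 on both arrays, was level.

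The genes that supply TRiC or take over from it form a further list. Of 12 prefoldin, phosducin-like and tubulin cofactor genes above the floor, 4 were higher and 8 lower, with a median of −0.10. Tbcb, which takes over folded α-tubulin, had 7.74 with bezafibrate and 8.14 with DMSO, and Tbca, which binds β-tubulin, had 7.40 and 7.74. Tbcc, another tubulin cofactor, had the highest ratio of the list, 0.17. Lower were thus 66.7% of that list, against 49.6% of all genes. Its median level was 7.32 with bezafibrate and 7.42 with DMSO, against 9.60 and 9.54 for the TRiC subunits, and the difference between the lists was not tested.

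The ER folding and unfolded protein response list had a median of −0.03, with 10 of 24 genes higher and 14 lower. Ero1a, the oxidase that feeds disulfide formation, had 8.50 with bezafibrate and 8.25 with DMSO, and Atf6, a sensor of the response, 8.52 and 8.29. The lowest of the list were Sec61b, a subunit of the translocation channel, at −0.33 and Sdf2l1 at −0.22. Of 18 genes of mitochondrial quality control and import, 8 were higher and 10 lower, with a median of −0.02. Hscb, the J protein of iron-sulfur cluster assembly, had −0.40 and Pam16, of the import motor, −0.33. Grpel2 and Clpb, a nucleotide exchange factor of Hspa9 and a disaggregase, had 0.23 and 0.20. Trap1, the mitochondrial HSP90, had 8.11 and 8.05.

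Of 6 general stress genes above the floor, 0 were higher, 5 lower and 1 equal, with a median of −0.19. Of all genes above the floor, 49.6% were lower. The list's median gene length was 5164 bp, and the shortest 2845 genes of the array had a median ratio of −0.09. Hmox1, the haem oxygenase induced by oxidants and heat alike, had 5.66 with bezafibrate and 6.27 with DMSO, 1.53-fold lower, where 0.524% of all genes were at least 1.5-fold lower. Atf3, also among the 5 lower genes, had 4.73 with bezafibrate and 5.09 with DMSO. Its bezafibrate value is under that array's floor of 4.85, so it was counted through the DMSO array alone. The metallothionein genes Mt1 and Mt2 had ratios of −0.19 and −0.18.

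**Figure D4:**
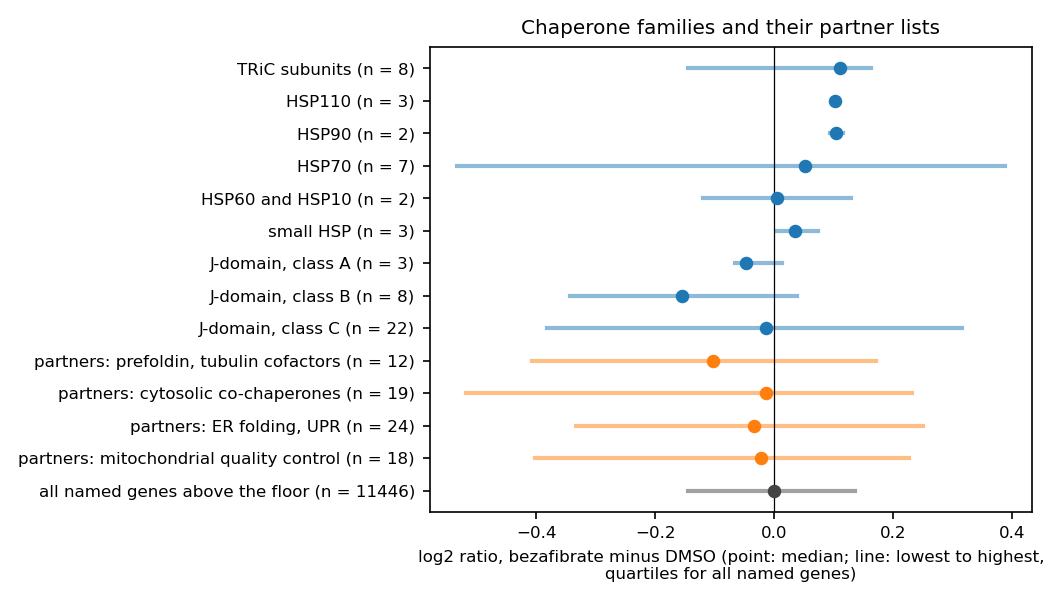
Log2 ratio of bezafibrate minus DMSO (x axis) for 9 chaperone families (blue) and 4 partner lists (orange: prefoldin and tubulin cofactors, cytosolic co-chaperones, ER folding, mitochondrial quality control), with the median as a point and the lowest to highest gene as a line; for all named genes (grey) the line spans the quartiles. Plotted medians run from −0.15 for class B J-domain genes to 0.11 for TRiC, and the lines of most rows cross 0.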

How the data were processed

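Total RNA of 2 cultures was amplified with a whole-transcript kit and hybridised to Affymetrix arrays, per the labels' protocols. The deposited log2 signals were made with RMA in Affymetrix Expression Console, as the submitters' processing notes name them; the version of each was not given in the sources used here; the log2 scale was read from the values. RMA includes a quantile normalization between arrays, so ratios are relative to other genes. The number of arrays limits the precision. Genes came from the platform annotation; 33793 of 41801 probe sets had values. A log2 ratio, the floor and limits of 0.32 (log2), 1.5-fold and 2-fold were computed with Python 3.11.15, numpy 2.4.6, pandas 2.3.3 and statsmodels 0.14.6, and plots with matplotlib 3.10.9, after a test on simulated data. RefSeq tables (GRCm38.p6) gave lengths for 77 members, and promoter windows. The members and lists were chosen with earlier results of these data known. Always named were the HSP70, HSP110, HSP90, HSP60, HSP10 and TRiC members above the floor, the 3 highest and 3 lowest ratios of each group, members past 1.5-fold and a few J-domain partners; the level classes, the family split and the inclusion of several-symbol probe sets were added after the data were seen. Alternatives covered the floor, normalization, trend removal, probe sets and group membership.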

Additional observations from a re-analysis of the deposited data

How the results depend on the processing

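No paired analysis was possible because each culture has 1 array, and no replicate could be left out. Group medians were recomputed under 11 alternatives each (12 for mitochondria), and those of the cytosol, ER and TRiC moved by at most 0.1 on the log2 scale, ranging from −0.06 to 0.05, from −0.01 to 0.09 and from 0.06 to 0.12. The mitochondrial median, −0.05, was 0.10 without its J-domain genes, which leaves 3 genes, and ran from −0.07 to −0.01 otherwise. The cytosolic and ER medians changed sign within those ranges, and the mitochondrial median did so without its J-domain genes. The medians of these groups give no direction. The counts of 0 past 1.5-fold were the same under every alternative except the lower limit of 0.32 (log2), which gave 1 higher and 4 lower. Signal over background limits what can be said of 16 members, including Hspa1a and Hspa1b, and with 1 array a culture the spread between arrays is unknown. Several-symbol probe sets and the placing of Hspd1 and Hspe1 with TRiC were alternatives chosen after seeing the data.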
